A study of Mus musculus with 8 samples.

Results

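The microRNAs (miRNAs) described here are the miR-200 family, made up of mmu-mir-200a, mmu-mir-200b, mmu-mir-429, mmu-mir-200c and mmu-mir-141, together with mmu-mir-203 and mmu-mir-205. They were chosen by name, as miRNAs typical of epithelium, and all 7 were found among the 273 miRNA species and 587 RNA species with enough reads to be tested. A sequence was counted for a member when its annotation named members and no other RNA. Small RNA was sequenced from mature sperm of the caudae epididymides of 8 male mice, 1 library per mouse. Mice of both groups carried an AAV with the activating DREADD hM3Dq, a designer receptor, in the arcuate nucleus of the hypothalamus, where only cells with Cre can express it. The 4 activated mice were Agrp Cre/+, so that CNO, the ligand of the receptor, excites their AgRP neurons, which drive feeding. The 4 control mice were Agrp +/+ and had received the same virus and the same CNO. Mice received the virus at 8 weeks of age. CNO was injected at 1 mg/kg in the absence of food in both groups, and sperm was taken 4 h afterwards. Genotype and activation therefore go together in this design. The comparison asks whether the level of these miRNAs in sperm differed when AgRP neurons had been activated.

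Epithelial cells line the epididymal duct, and sperm acquire part of their small RNA while passing through it. The miR-200 family is known for keeping epithelial cells epithelial: its members bind the transcripts of Zeb1 and Zeb2, repressors of E-cadherin. miR-203 is best known from the differentiating layers of skin, where it restrains the stem cell factor p63, and miR-205 from basal cells of stratified and glandular epithelium. A miRNA finds its targets mainly through its seed, so that members with a shared seed are expected to bind many of the same transcripts.

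The mature sequences, from RefSeq on GRCm38.p6, show how the members are related. The capitals mark the seed, bases 2 to 8. The arm with most reads is shown for each member, and the first 2 sequences share a seed, as do the next 3.
miR-200a-3p: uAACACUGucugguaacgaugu
miR-141-3p: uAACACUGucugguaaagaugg
miR-200b-3p: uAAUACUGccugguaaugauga
miR-200c-3p: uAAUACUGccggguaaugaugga
miR-429-3p: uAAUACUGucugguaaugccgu
miR-203-3p: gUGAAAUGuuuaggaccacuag
miR-205-5p: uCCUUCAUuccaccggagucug

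The genes of the family lie in 2 clusters, and each cluster holds members of both seed groups. On GRCm38, the build of the deposited annotation (mm10), the hairpins of miR-200b, miR-200a and miR-429 span 1846 bases of the minus strand of chromosome 4, from 156053905 to 156055750. GENCODE M21 places all 3 in introns of the protein-coding gene Ttll10 and within the noncoding transcript Gm13648, with miR-429 overlapping an exon of the latter. The hairpins of miR-200c and miR-141 span 477 bases of the minus strand of chromosome 6, from 124717914 to 124718390, in an intron of the noncoding gene Gm15884, and that of miR-141 also overlaps the annotated model Gm29008. The hairpin of miR-203 is at 112130880 to 112130955 on the plus strand of chromosome 12, where no other gene is annotated. The hairpin of miR-205 is at 193507463 to 193507530 on the minus strand of chromosome 1, in an exon of the long noncoding RNA 4631405K08Rik.

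Activated libraries held 14903635, 17489698, 14757501 and 9409491 reads in replicates 1 to 4, and control libraries 12421068, 23123740, 9297271 and 14348060. The 7 members together took 462661 reads in 282 distinct sequences, all of which match the genome. One library stands apart from the rest. Control replicate 4 alone gave 60.2% of all member reads, and the members made up 4.12% of its miRNA reads. In the other libraries that share was between 0.320%, in activated replicate 4, and 1.53%, in control replicate 3. The fold changes and ratios of the members are therefore given with and without control replicate 4.

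Of the cluster on chromosome 6, miR-200c had 886, 480, 554 and 441 RPM (reads scaled to the total of the library) in activated replicates 1 to 4. In control replicates 1 to 4 it had 677, 560, 1169 and 7487 RPM. Control replicate 4 was high and control replicate 3 came next, while the remaining controls lay within the range of the activated samples. Its neighbour miR-141 had 1733, 376, 279 and 512 RPM in activated sperm and 395, 874, 1008 and 6473 RPM in control sperm. Here activated replicate 1 was above all samples but control replicate 4, and the groups overlapped. Which of the pair was more abundant differed among libraries, with miR-141 above miR-200c in activated replicates 1 and 4 and control replicate 2 and below it in the others.

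The cluster on chromosome 4 was read less often. Its member miR-200a had 475, 121, 84.2 and 121 RPM in activated replicates 1 to 4 and 120, 211, 235 and 2406 RPM in control replicates 1 to 4. miR-200b had 233, 128, 114 and 67.8 RPM in activated and 111, 112, 219 and 2061 RPM in control sperm. For both, control replicate 4 was the highest library, activated replicate 1 the next, and the other 6 overlapped. The least abundant of the family, miR-429, had 52.8, 20.4, 15.7 and 15.2 RPM in activated and 17.6, 29.2, 35.9 and 482 RPM in control sperm, in the same order of the top libraries.

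Outside the family, miR-203 had 89.6, 32.5, 24.7 and 35.5 RPM in activated sperm and 32.8, 33.9, 28.1 and 239 RPM in control sperm. Apart from control replicate 4 and activated replicate 1, its levels were nearly level across libraries. The basal cell miRNA miR-205 had 6.17, 7.55, 13.8 and 3.51 RPM in activated sperm and 11.4, 5.79, 36.8 and 272 RPM in control sperm. It was the member for which activated replicate 1 was not raised, and control replicate 3 followed control replicate 4. The groups overlapped for 7 of 7 members. Among all RNA species tested, 13 of 587 (2.21%) did not overlap between groups.

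**Figure D1:**
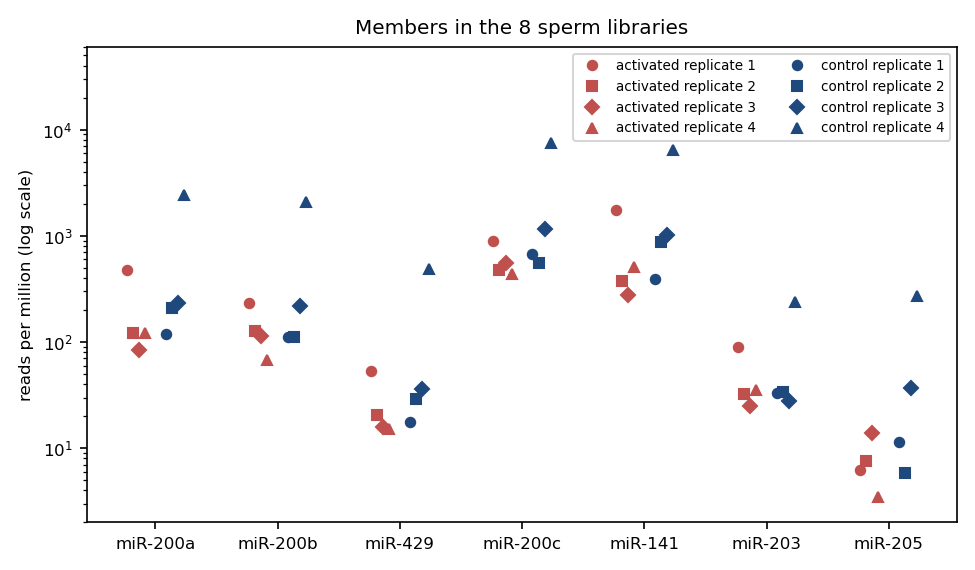
RPM of each member (log scale) in the 4 activated (red) and 4 control (blue) libraries, 1 point per mouse. Control replicate 4 is the highest point for all 7 members, from 239 RPM for miR-203 to 7487 RPM for miR-200c.

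Over all samples the summed members came to 1731 ± 1164 RPM in activated mice against 6336 ± 8742 RPM in controls (SD, n = 4 each), so that activated sperm stood at 0.273 of control. Without control replicate 4 the control mean was 1974 ± 696 RPM (SD, n = 3) and activated sperm stood at 0.877 of it. In these bulk libraries fewer cells that hold a miRNA and less of it per cell cannot be told apart.

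By edgeR's quasi-likelihood test over all RNA species, where a call needs p under 0.05 after Benjamini-Hochberg adjustment and a change of more than 1 on the log2 scale, 0 of the 7 members were called, and 0 of 587 species (0%) were called in all. All 7 fold changes were below 0, with a median of -2.16 on the log2 scale, against a median of -0.07 over the 587 species and 0.15 over the 273 miRNA species. The largest was that of miR-205 at -3.39 (standard error, SE, 1.23, adjusted p = 0.554 in edgeR), and the smallest that of miR-203 at -1.02 (SE 0.78, adjusted p = 0.644 in edgeR). In the family they were -2.16 for miR-200c, -1.79 for miR-141, -2.09 for miR-200a, -2.32 for miR-200b and -2.60 for miR-429, with standard errors (SE) of 0.86 to 1.11. At an unadjusted p under 0.05, 4 of 7 members were lower in activated sperm, against 38 of 587 species (6.47%). DESeq2 with apeglm called 3 species (0.511%), none of them a member. It gave no adjusted p for 5 of the 7 members, and shrank the fold changes of all 7 to between -0.11 and -0.05.

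Without control replicate 4 the median fold change of the members was -0.17, against 0.33 over the 263 miRNA species then tested, and 0 of 7 had an unadjusted p under 0.05, against 16 of the 263 miRNA species and 69 of the 574 RNA species. The value was -0.03 (SE 0.49) for miR-200a, -0.17 (SE 0.41) for miR-200b, -0.16 (SE 0.42) for miR-429, -0.20 (SE 0.53) for miR-141, -0.48 (SE 0.33) for miR-200c and -1.15 (SE 0.70, adjusted p = 0.435 in edgeR) for miR-205. The fold change of miR-203 changed sign, to 0.44 (SE 0.35). With replicate number as a block the members stood between -1.56, for miR-205, and -0.24, for miR-203, and 0 species were called.

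**Figure D2:**
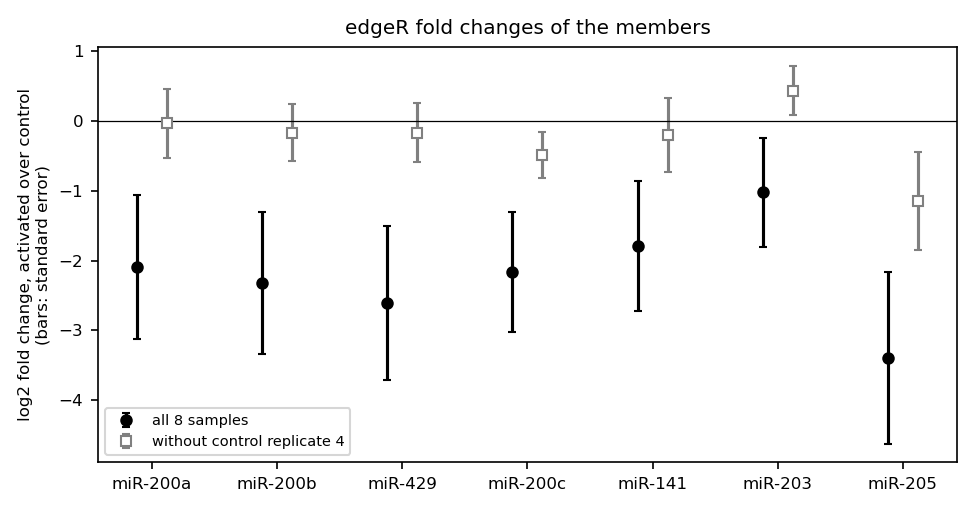
Log2 fold changes (activated over control) of the 7 members by edgeR, with standard errors, over all 8 samples (filled) and without control replicate 4 (open). The values run from -3.39 to -1.02 over all samples and from -1.15 to 0.44 without that library.

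The balance of the clusters was compared as a ratio within each library, which needs no scaling between libraries. Reads of miR-200c and miR-141 exceeded those of miR-200b, miR-200a and miR-429 in all 8 libraries, by 3.44, 3.18, 3.89 and 4.67 times in activated replicates 1 to 4 and by 4.32, 4.08, 4.44 and 2.82 times in control replicates 1 to 4. The lowest ratio was that of control replicate 4, in which both clusters were high. On the log2 scale the ratio was 1.91 ± 0.24 in activated and 1.95 ± 0.30 in control sperm (SD, n = 4 each), a difference of -0.04 (two-sided exact permutation test over 70 assignments, p = 0.914, adjusted p = 0.914 over 2 ratios). The smallest p that this test can give is 0.0286. A difference in cluster balance was not detected. It was -0.19 without control replicate 4 (exact permutation test, adjusted p = 0.571), and its sign changed when some other single samples were left out. Control replicate 4 exceeded the median of the other 7 libraries 18.4 times for the chromosome 4 cluster and 13.0 times for the chromosome 6 cluster.

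The seed groups gave a second ratio, that of miR-200a and miR-141 to miR-200b, miR-200c and miR-429. It was 1.88, 0.791, 0.531 and 1.21 in activated replicates 1 to 4 and 0.639, 1.55, 0.873 and 0.885 in control replicates 1 to 4. On the log2 scale the means were -0.02 ± 0.79 and -0.10 ± 0.53 (SD, n = 4 each), a difference of 0.08 (two-sided exact permutation test, p = 0.857, adjusted p = 0.914 over 2 ratios), and of 0.054 without control replicate 4 (exact permutation test, adjusted p = 0.943). Its sign changed without activated replicate 1 (-0.23), activated replicate 4 (-0.016) or control replicate 1 (-0.10), and it was 0.38 without activated replicate 3. The spread within each group was wider than for the cluster ratio. The log2 ratio of the neighbours miR-141 and miR-200c had an SD of 0.83 in activated and 0.59 in control sperm, and that of miR-200a and miR-200b an SD of 0.71 and 0.39 (n = 4 each).

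**Figure D3:**
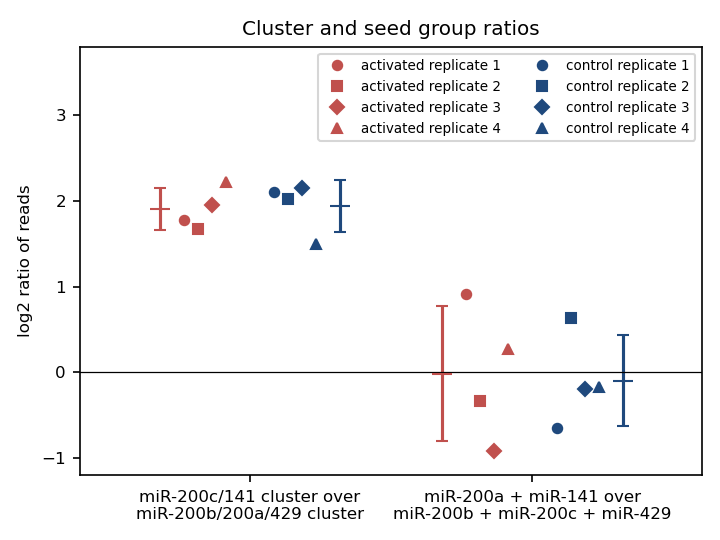
Log2 ratio of reads of the clusters and of the seed groups in each library, with the mean and SD of each group (n = 4) beside the points. The groups overlap in both ratios, and the points of the seed ratio range from -0.91 to 0.91.

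That spread lay alongside another property of the libraries. Mitochondrial rRNA took 2.05% of reads in activated replicate 1, 1.80% in activated replicate 4, 2.06% in control replicate 2 and 2.24% in control replicate 4, and between 7.11% and 8.35% in the other 4 libraries. In the 4 samples with little mitochondrial rRNA, miR-141 stood at 0.865 to 1.96 times miR-200c, and in the 4 with more at 0.503 to 0.863 times. The pair on chromosome 4 did the same, with miR-200a at 1.17 to 2.04 times miR-200b in the first 4 samples and 0.737 to 1.08 times in the others. The ranges do not overlap for either pair, although for the first they nearly meet, at control replicates 4 and 3. Each set holds 2 activated and 2 control samples, and the sets were defined from these data, so the difference was not tested. The log2 seed ratio differed between activated and control samples by 0.37 within the first set and by -0.20 within the second. The value of 0.37 rests on control replicate 4, at -0.18. Control replicate 2, at 0.63, lay between activated replicates 1 and 4, at 0.91 and 0.27. Summed members stood at 0.220 of control within the first set, which holds control replicate 4, and at 0.549 within the second. The value of 0.220 rests on control replicate 4. In control replicate 2, the other control of that set, the sum was 1825 RPM. It lay between the 3476 and 1196 RPM of activated replicates 1 and 4. In the second set activated replicates 2 and 3, at 1166 and 1085 RPM, lay below control replicates 1 and 3, at 1364 and 2733 RPM. This was not tested.

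**Figure D4:**
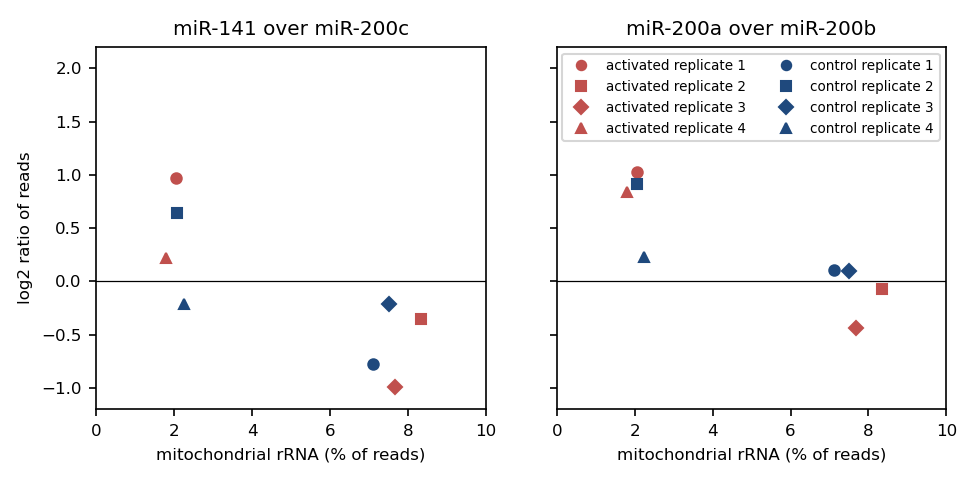
Log2 ratio of miR-141 to miR-200c (left) and of miR-200a to miR-200b (right) in each library against the percentage of its reads from mitochondrial rRNA. Libraries with 2.24% or less lie above those with 7.11% or more in both plots, with control replicate 4 the lowest of the former.

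At the level of single sequences the members looked like processed miRNAs. Reads of 18 to 25 nt made up 99.8% of member reads, and 42.0% were 21 nt long. The 3p arm held 98.8% of reads of miR-200a, 98.4% of miR-141, 99.9% of miR-200c, 99.7% of miR-429 and 100.0% of miR-203, and the 5p arm 98.2% of those of miR-205. In miR-200b the 5p arm was more frequent, at 4.54% of reads over all libraries and 3.94% to 9.56% in single ones.

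Most reads began at the base that RefSeq gives, and so kept the printed seed. The share was 99.8% for miR-200a-3p, 99.7% for miR-141-3p, 99.3% for miR-200c-3p, 98.9% for miR-200b-3p, 99.4% for miR-429-3p and 99.1% for miR-205-5p. miR-203-3p differed, with 72.2% of reads at the RefSeq base and 27.1% starting 1 base later, which moves the seed by 1 base. The shifted share of miR-203 ran from 18.1% to 31.7% among libraries, and the share at the RefSeq base was lowest in control replicate 4, at 67.7%. The 3' ends varied more. The most-read sequences of miR-200a, miR-141 and miR-429 were 21 nt long and 1 base shorter than the RefSeq sequence, with 63.1%, 69.6% and 69.1% of the reads of each member. Those of miR-200b, miR-200c and miR-203 were the RefSeq sequence itself, and that of miR-205 was 1 base longer. The 4 forms that depart from RefSeq at the last base are given here as read.
miR-200a: uAACACUGucugguaacgaug
miR-141: uAACACUGucugguaaagaug
miR-429: uAAUACUGucugguaaugccg
miR-205: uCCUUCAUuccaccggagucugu

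The most-read sequence of miR-141 had 1168, 235, 176 and 304 RPM in activated and 235, 528, 605 and 4861 RPM in control sperm (log2 fold change -1.97 with an SE of 1.09, adjusted p = 0.841 over 12077 sequences in edgeR). That of miR-205 had 2.55, 3.43, 7.79 and 1.81 RPM against 5.56, 2.59, 16.8 and 144 RPM (log2 fold change -3.71 with an SE of 1.31, adjusted p = 0.563 in edgeR). As in the summed reads, control replicate 4 was highest for both, followed by activated replicate 1 for miR-141 and control replicate 3 for miR-205. Of the 26 member sequences tested, 0 were called, against 52 of 12077 sequences (0.431%), and DESeq2 called 0 of the 26 against 240 (1.99%). DESeq2 gave no adjusted p for the most-read sequence of any member, so it could not call these. At an unadjusted p under 0.05 there were 8 of 26, all of them lower in activated sperm, and 872 of 12077. The groups overlapped for all 26, while 481 of the 12077 sequences (3.98%) did not overlap. Control replicate 4 was the highest library for 26 of 26 member sequences and for 779 of all 12077. Without it, the fold changes of the most-read sequences of miR-203, miR-141, miR-200a, miR-200b and miR-429 were above 0, between 0.011 and 0.91, and those of miR-200c and miR-205 were -0.36 and -1.08. The count of called sequences was 0 when control replicate 4 was left out, and also 0 when control replicate 2 or 3, or any of activated replicates 1, 3 and 4, was left out. It was 15 when activated replicate 2 was left out and 54 for control replicate 1.

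Control replicate 4 was also the highest library for 7 of 7 members, 103 of 273 miRNA species and 109 of 587 RNA species. Its excess over the median of the other 7 libraries, on the log2 scale after adding 1 RPM, had a median of 4.16 over the members and 0.34 over the miRNA species. By that excess miR-205 ranked 4 among the 273 miRNA species, miR-429 ranked 7, miR-200a 8, miR-200b 12, miR-200c 20, miR-141 23 and miR-203 38.

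Marker miRNAs of other cells were followed in the same libraries. The 7 miRNAs typical of mesenchyme and smooth muscle summed to 405, 207, 144 and 303 RPM in activated replicates 1 to 4 and to 215, 373, 284 and 35461 RPM in control replicates 1 to 4. All 7 had reads, and by pooled reads the most-read was miR-143, with 332, 141.4, 83.7 and 220 RPM in activated and 130, 294, 117 and 17171 RPM in control sperm. In control replicate 4 miR-145a was higher still, at 17715 RPM. This list thus set control replicate 4 apart more than the epithelial members did, and all 3 of its members tested were highest there. Their median log2 fold change was -4.70 over all samples and -0.58 without control replicate 4, where that of miR-143 changed sign, to 0.039. With replicate number as a block miR-143 stood at -0.99, and with the mitochondrial rRNA set as covariate at -2.60. None of the 3 was called by either tool, but DESeq2 gave no adjusted p for miR-143 and miR-145a and so could not call them. The part of such cells in the levels of the members was not tested. By qPCR the paper reports that its sperm RNA was strongly enriched for the mature sperm marker Prm2. It reports low enrichment for E-cadherin and C-kit, as markers of somatic and stem cells.

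The 9 miRNAs of a second epithelial list, which includes the miR-183 cluster and miR-375, summed to 3159, 2617, 2169 and 3400 RPM in activated and 2368, 2804, 1937 and 5433 RPM in control sperm. All 9 had reads, 8 were tested and 0 called, and 4 of the 8 were highest in control replicate 4, as was the sum of the list, at 2.08 times the median of the other libraries. Its most-read member miR-375, known from endocrine and secretory epithelium, had 1058, 1231, 1162 and 1485 RPM in activated and 1242, 1111, 901 and 1153 RPM in control sperm, and so was not raised in control replicate 4. Not all epithelial miRNAs were therefore high in that library. The miR-183 cluster was intermediate, with miR-96 at 821 RPM, miR-182 at 1464 RPM and miR-183 at 697 RPM in control replicate 4. These are 6.62, 5.01 and 3.18 times the median of the other libraries. Outside that cluster miR-31 was also highest there, at 675 RPM or 3.64 times. For miR-184, miR-192, miR-194 and miR-215 it was 0.868 to 1.19 times.

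Erythroid miRNAs, 4 of 4 with reads, summed to 201, 47.9, 64.6 and 58.3 RPM in activated and 126, 383, 565 and 285 RPM in control sperm. The order of libraries differed from that of the members, with control replicate 3 highest. This sum was mostly miR-451a, while the rare miR-486a (12.5 RPM) and miR-486b (0.767 RPM) were highest in control replicate 4. The groups did not overlap for miR-486a, which had 0.470 RPM or less in activated sperm and 1.05 RPM or more in control sperm and was too rare to be tested. The most-read was miR-451a, at a log2 fold change of -1.95 (SE 0.51, adjusted p = 0.554 in edgeR), which DESeq2 called (log2 fold change -1.65, adjusted p = 0.0164). Without control replicate 4 its log2 fold change in edgeR was -2.07. Leukocyte miRNAs, 5 of 6 with reads and none for mir-142, summed to 979, 432, 706 and 623 RPM in activated and 410, 539, 394 and 879 RPM in control sperm. The most-read was miR-142a, with 762 RPM in activated replicate 1 and 443 RPM in control replicate 4, which is 1.17 times the median of the other libraries. The other 4 with reads were higher there, at 4.89 times for miR-146a (326 RPM), 3.09 for miR-155, 2.94 for miR-150 and 2.82 for miR-223. Of these only miR-146a was highest in that library. miR-150 was highest in activated replicate 3, at 245 RPM. miR-155 and miR-223 were highest in activated replicate 1, at 5.17 and 37.6 RPM. Of the 4 tested, 0 were called.

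Germ line and sperm miRNAs made up more of each library than the members did, though the members reached 19420 RPM in control replicate 4. All 21 had reads, and they summed to 63112, 44633, 35225 and 59833 RPM in activated and 37890, 52585, 27639 and 45688 RPM in control sperm. By reads pooled over the libraries the most-read was miR-34c, with 6670 RPM in control replicate 4, where miR-34b had 7653 RPM. By mean RPM miR-34c was above miR-34b in activated sperm (9345 against 8428) and below it in control sperm (6769 against 8211). Of the 19 tested, 0 were called and 0 were highest in control replicate 4. All 19 fold changes were above 0, with a median of 0.35 on the log2 scale over all samples and 0.45 without control replicate 4. Over all miRNA species these medians were 0.15 and 0.33, with 106 of 273 and 49 of 263 fold changes below 0. Control replicate 4 thus had germ line miRNAs at 1.02 times the median of the other libraries while the members were at 14.2 times. None of the 5 lists had a member without reads in control replicate 4 that had reads elsewhere.

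**Figure D5:**
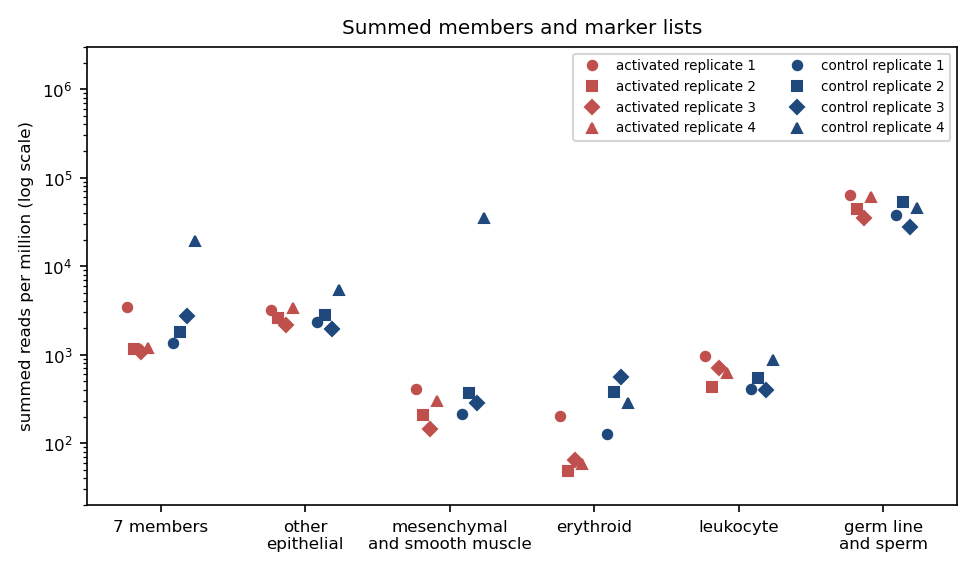
Summed RPM (log scale) of the 7 members and of 5 lists of marker miRNAs in each library. Control replicate 4 is the top point for the members, at 19420 RPM, for the other epithelial miRNAs, at 5433 RPM, and for mesenchymal and smooth muscle miRNAs, at 35461 RPM, and lies among the others for germ line and sperm miRNAs.

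Among 266 other miRNA species, the 5 whose pattern over the 8 samples was closest to that of the summed members were miR-10a, miR-10b, miR-187, reads shared by miR-199a and miR-199b, and miR-99a. Closeness was the root mean square distance on centred log2 RPM, which was 0.29 for miR-10a and 0.36 for miR-99a. miR-10a had 2339, 1539, 1190 and 1353 RPM in activated and 1690, 1593, 3071 and 19865 RPM in control sperm. Its log2 fold change was -2.13 (SE 0.86, adjusted p = 0.554 in edgeR), and -0.45 without control replicate 4. miR-10b stood at -2.55 and -0.36 in the same fits, and miR-99a at -2.48 and -0.37. With replicate number as a block the values were -1.01 for miR-10a, -1.03 for miR-10b and -0.995 for miR-99a. In that fit miR-187 stood at -0.71, and the reads shared by miR-199a and miR-199b at -0.93. Without control replicate 4, miR-187 was too rare to be tested. These species were selected for their pattern over the same samples, so their fold changes and their high level in control replicate 4 follow from the selection. In that library they stood from 9.03 times the median of the other libraries for miR-199a and miR-199b to 23.9 times for miR-187.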

How the data were processed

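The authors deposited, for each of the 8 samples, raw read counts of every distinct sequence with the RNAs it was annotated to and a flag for a match to the genome (mm10; the submitters' processing notes name Bowtie). A second deposited table of each sample, with reads per annotation class, was not used. Copy suffixes were ignored, and 9 reads naming 2 members were left out of single members but kept in their sum. RPM were computed from the counts and all reads of a file. The members and lists were chosen with earlier results of these data known.

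EdgeR 4.0.16 in R 4.3.3 (quasi-likelihood test, TMM on library totals) was run on RNA species and on sequences that reached 50 counts in 4 or more samples, as were DESeq2 1.42.0 and apeglm 1.24.0. Both were tested on simulated data in which no library stood apart. That does not show how they handle a library such as control replicate 4. Ratios were compared by exact permutation in Python 3.11.15. Named miRNAs are all members and their most-read sequences, the 5 species closest to their sum, and of each marker list the most-read member and any called. Some other list members are named for their level in control replicate 4, and miR-486a also because its groups did not overlap. Hairpins and mature sequences of 7 of 7 members were matched in RefSeq by name, and hosts come from GENCODE M21. Reads carry no molecular identifiers, so the spread between mice was taken as the error.

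Alternatives were other normalizations, count minimums, read selections and denominators, a replicate block, the mitochondrial rRNA set as covariate, and leaving out each sample. Added after seeing the data were the RPM ratio without each sample, and TMM on sums of the tested features. The latter was tried because its count of called sequences matched one already known for these data, which is no reason to prefer it, so library totals, the first choice, were kept.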

Additional observations from a re-analysis of the deposited data

Results flagged for a closer look

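In 11 of 18 groups of 4 samples (7 members and 2 ratios, in 2 groups each) one sample lay so far from the others that its gap to the nearest, as a part of the group's range, passed Dixon's critical value. Chance flags about 1 group in 20 where values are normally distributed. The member values were RPM not put on a log scale, so that rate need not hold for them. The members also share libraries, so the flags are not separate events. Control replicate 4 was the high sample for 7 of 7 members, with 2406 RPM for miR-200a, 2061 RPM for miR-200b, 482 RPM for miR-429, 7487 RPM for miR-200c, 6473 RPM for miR-141, 239 RPM for miR-203 and 272 RPM for miR-205. In activated sperm, replicate 1 was the high sample for miR-200a (475 RPM), miR-429 (52.8 RPM), miR-141 (1733 RPM) and miR-203 (89.6 RPM). Neither ratio had such a sample.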

How the results depend on the processing

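The 7 members' fold changes stayed below 0 in 132 of 133 combinations of member and alternative fit. The exception was miR-203 without control replicate 4, and no member was called in any of the fits. Most of these fits include control replicate 4, and the upper end of each member's range below is the fit without it. In DESeq2, 5 of the 7 had no adjusted p and so could not be called. Without each sample in turn the members' fold changes ranged from -2.76 to -0.03 (miR-200a), -2.68 to -0.17 (miR-200b), -3.02 to -0.16 (miR-429), -2.50 to -0.48 (miR-200c), -2.50 to -0.20 (miR-141), -1.42 to 0.44 (miR-203) and -3.96 to -1.15 (miR-205). That of miR-143, which is not a member, ranged from -5.11 to 0.039. For most-read sequences the ranges were -2.02 to 0.91 (miR-203), -2.95 to 0.20 (miR-141), -3.15 to 0.15 (miR-200a), -3.01 to 0.10 (miR-200b) and -3.48 to 0.011 (miR-429), and the ratio of summed members ran from 0.181 to 0.877. The cluster ratio ranged from -0.19 to 0.042 and the seed ratio from -0.23 to 0.38. Without a sample the edgeR count ran from 0 to 0 for RNA species and from 0 to 54 for sequences (main count 52). Sequences called were 240 with DESeq2, 256 at a minimum of 10 counts, 0 with a replicate block and, chosen after seeing the data, 61 with TMM on sums of the tested sequences. Species called were 3 with DESeq2, and miR-451a passed there (-1.65). With the replicate block the ratios differed by -0.04 and 0.08 (adjusted p = 1 for each, exact sign-change test). With so few pairs this test cannot reach p under 0.05, so it decides nothing. Same-numbered samples of the groups correlated at -0.507, 0.043, 0.525 and -0.113 after removing group means. The labels do not say whether the numbers pair mice, and these correlations cannot decide it. The cause of these changes was not tested.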
